A study of Drosophila melanogaster with 11 samples.

Results

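Male and female control larvae of Drosophila melanogaster carried only 1 of the 2 elements that the study combined to act on the chromatin protein HP1, and they were compared on 8 of the 11 arrays of the series, 4 from males and 4 from females. The arrays were chosen by their titles, with the control cross as a covariate. RNA was extracted from entire larvae of the third instar and hybridised to Affymetrix Drosophila 2.0 arrays, 1 sample to an array. All larvae had a y w background. The act-Gal4 control carried the driver alone, in which an actin promoter drives Gal4, and the P control carried the transgene labelled P alone. Strain entries of some arrays conflict with their titles, and P is taken to be the line that the series' design calls HP1-21. Each control had 2 male and 2 female arrays. The other 3 arrays, 2 male and 1 female, came from larvae with both elements (P/act-Gal4). They were not part of the comparison and are given only as further values. Larvae came from 2 independent populations, per the design text, to which no label assigns an array. The p-values therefore measure the spread between these arrays, which may be partly technical.

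Sex in Drosophila is set by the number of X chromosomes, which switches on Sex-lethal in females, and through transformer leads to female or male forms of doublesex and fruitless. In males the MSL complex, whose protein msl-2 is made in males, raises transcription of the single X chromosome. The gonads are small at this stage, but the larval testis already holds many spermatocytes with a large programme of their own transcripts, whereas the larval ovary has few germ cells and no egg chambers. In whole larvae, more cells of a type and more RNA per cell cannot be told apart.

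Between the arrays of a group the median absolute log2 difference was 0.0926 to 0.135, and their correlation across probesets was 0.994 to 0.998 against 0.908 to 0.928 between the sexes (probesets are not independent replicates). Median intensity was 15.3 to 15.6 on male and 13.7 to 14.1 on female arrays. The median probeset was nevertheless lower in males, by a male minus female log2 difference of -0.17. This shift is the frame for small differences below. The 7 measured genes of the Y chromosome lay between 2.08 and 3.27 on female arrays, whose larvae have no Y chromosome, and between 2.04 and 3.26 on male arrays. None of the 7 was called, so these genes did not mark the sex of the arrays. The highest female value, 3.27, is used below as a background level, and a fold named for a gene with a mean at or under it is given as at least the fold over that level. Log2 differences, and counts of genes by fold unless said otherwise, are as measured. Markers of tissues that a larva has were bright in both sexes, with male and female means of 12.96 and 12.53 for the glue gene Sgs3, 13.29 and 13.11 for the fat body protein Lsp2 and 12.57 and 12.65 for the midgut protease Jon65Aiv. Of 12 genes of the adult male accessory gland, which larvae lack, 11 had both means at or under the background level. The log2 gap between the 3′ and 5′ control probesets of eIF4a averaged 4.32 in act-Gal4 males, 4.22 in act-Gal4 females, 4.97 in P males and 3.95 in P females. It thus differed between the sexes mainly in the P control, and its part in the results was not tested.

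Of 18769 probesets, 9538 (50.8%) differed between the sexes by limma at an adjusted p under 0.05, 2809 (15%) higher in males and 6729 (35.9%) higher in females. At least 2-fold differences were called for 1369 (7.29%) in males and 202 (1.08%) in females. Males made up 29.5% of the calls as deposited, 15.4% when arrays were shifted to a common median and 63.8% when the median difference between the sexes was set to 0. At a common median 2335 of the 18769 probesets were called higher in males and 12801 in females. With the median difference set to 0 these counts were 3756 and 2130. Counts of gene lists under these 2 scalings below stand beside these, not beside the shares as deposited. The sizes were unequal. Of 11982 genes, each represented by its brightest probeset, 6511 (54.3%) were called. Of all genes 2486 (20.7%) were higher in males and 4025 (33.6%) in females, but 1245 genes (10.4%) were at least 2-fold higher in males against 170 (1.42%) in females. The 4 male and 4 female arrays did not overlap, with males higher, for 18.8% of genes and, with females higher, for 22.4%. At 8-fold and above there were 307 male-biased and 0 female-biased genes as measured, and 23 genes passed 64-fold in males. With means under the background level raised to it, the male-biased counts were 1139 at 2-fold, 261 at 8-fold and 18 at 64-fold, and 169 genes were at least 2-fold higher in females. The largest female bias was 5.70-fold, for Yp3.

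**Figure D1:**
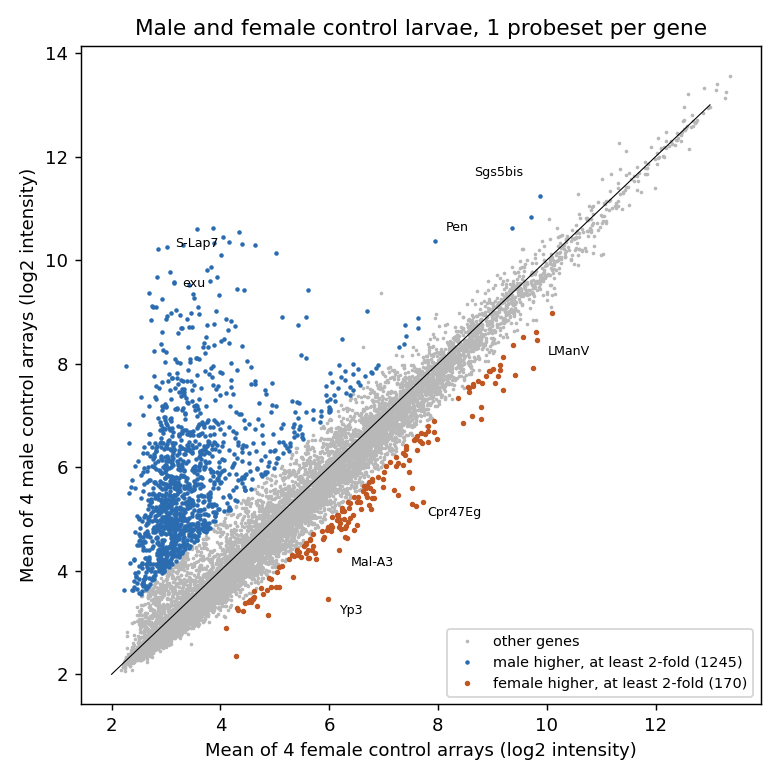
Mean log2 intensity of the 4 male control arrays (vertical axis) against the 4 female control arrays (horizontal axis), 1 point per gene, with the line of equal levels. The 1245 genes called and at least 2-fold higher in males rise from low female levels up to S-Lap7, and the 170 female-biased genes lie close below the line.

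The 3 arrays of P/act-Gal4 larvae gave the same contrast in RNA that was not used for the calls. Of the 1245 genes at least 2-fold higher in control males, 1239 (99.5%) were higher in P/act-Gal4 males too and 1053 (84.6%) at least 2-fold, while 36.5% of all genes were higher in these males and 9.71% at least 2-fold. Of the 170 genes at least 2-fold higher in control females, 132 (77.7%) were higher in the P/act-Gal4 female and 36 (21.2%) at least 2-fold, where 63.5% of all genes were higher in that female and 2.04% at least 2-fold. The limma test there called 32.5% of genes. The female side rests on 1 array.

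The genes with the largest male bias are known from the testis. S-Lap7, an aminopeptidase that is abundant in sperm, was at 9.94, 9.97, 10.55 and 10.56 on the male arrays (act-Gal4 first, then P) and at 2.99, 3.31, 2.97 and 2.79 on the female arrays. The groups were far apart, by 7.24 ± 0.16 on the log2 scale (SE, limma adjusted p = 1.31e-11), or at least 126.5-fold. All 4 measured sperm leucyl aminopeptidases were higher in males, with S-Lap8 at 6.70 and S-Lap2 at 6.33. Others among the 15 largest named differences were salto at 6.83, Mst84Da at 6.45, Mst98Ca at 6.396, tHMG1, an HMG-box protein, at 6.37, ocn at 6.28, Mst84Dc at 6.19, robl62A, of a dynein light chain family, at 6.07, Mst84Db at 6.05 and w-cup at 5.89. Of 25 measured genes for sperm chromatin proteins and Mst (male-specific) transcripts, 21 rose and none fell in males, with a median difference of 4.65. Over all genes 20.7% were called higher in males and 33.6% in females, with a median of -0.14, and the counts of each gene list below stand beside these shares.

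The same 15 include exu, TrxT and Hsp60C. Exuperantia (exu), best known for placing bicoid RNA in the oocyte and also needed for spermatogenesis, was at 9.21, 9.31, 9.88 and 9.93 in males and 3.01, 3.05, 3.09 and 3.44 in females. The difference of 6.44 ± 0.11 (adjusted p = 2.10e-12), at least 79.4-fold, came from its brightest probeset, and the other exu probeset gave 2.95. TrxT, a testis thioredoxin encoded on the X chromosome, was at 8.55, 8.67, 9.09 and 9.08 in males and 2.65, 2.85, 2.59 and 2.79 in females, a difference of 6.13 ± 0.11 (adjusted p = 4.69e-12), or at least 47.8-fold. Hsp60C, a mitochondrial-type chaperonin, was at 8.77, 8.86, 8.95 and 8.92 against 3.00, 2.89, 3.11 and 3.00, a difference of 5.87 ± 0.07 (adjusted p = 3.73e-13), or at least 48.6-fold. The sexes did not overlap in these genes, which was a condition for naming them.

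A second group of male-biased genes had a level above the median probeset (3.96) in both sexes, and thus above the background level of 3.27. Smooth (sm), an hnRNP protein, was at 9.12, 9.24, 9.65 and 9.71 in males and 5.84, 6.01, 5.04 and 5.59 in females, 14-fold higher in males (3.81 ± 0.20, adjusted p = 2.21e-08). The cap-binding translation factors eIF4E3 and eIF4E4 were 13.6-fold and 12.2-fold higher in males. Cdlc2, a cytoplasmic dynein light chain, was 15.3-fold higher, Cyt-c1L, a cytochrome c1 paralog, 10.3-fold, the tubulin tyrosine ligase-like enzymes TTLL4B and TTLL6B 8.22-fold and 8.16-fold, kat-60L1, a katanin-like microtubule-severing protein, 6.39-fold, and Tom70, a mitochondrial import receptor, 5.99-fold. Mst87F was 34.4-fold and vrs 21.6-fold higher. These genes, too, were named only if the sexes did not overlap.

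**Figure D2:**
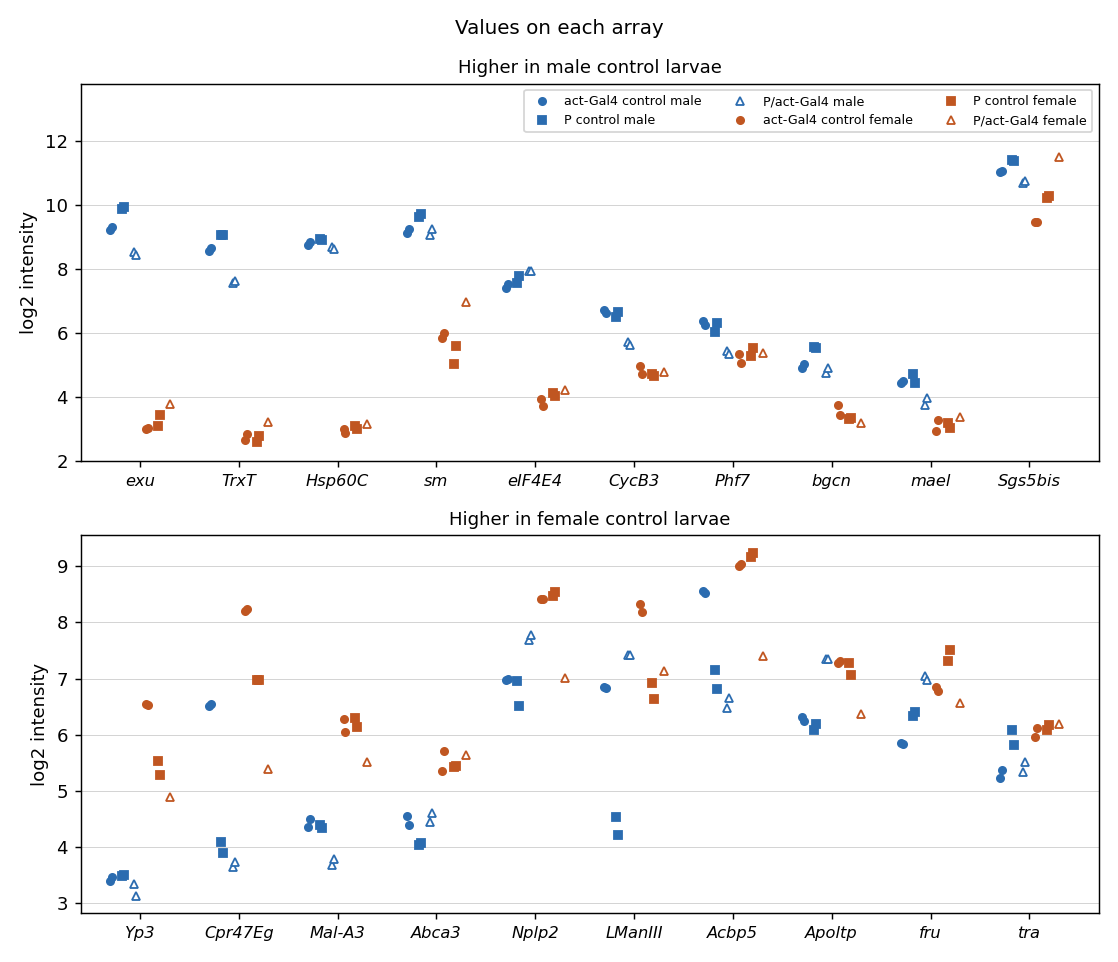
Log2 intensity on each of the 11 arrays for 10 genes higher in control males (upper panel) and 10 higher in control females (lower panel); circles are act-Gal4 control, squares P control and open triangles P/act-Gal4, with males in blue and females in orange. TrxT and Hsp60C separate the sexes in all 3 genotypes, while Sgs5bis, Nplp2, LManIII, Apoltp and fru have the opposite order in P/act-Gal4 larvae.

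Most measured testis paralogs of mitochondrial and proteasome proteins were higher in males. Of 22 measured genes listed with the testis paralogs of respiratory and other mitochondrial proteins, 20 rose in males (median 2.36). Of these, 19 rose at least 2-fold, against 10.4% of all genes. Tim17a2 and Idh3a were not called. ATPsynCF6L, an ATP synthase coupling factor paralog, was 23.3-fold higher in males, COX5BL, of cytochrome oxidase, at least 16.5-fold, and tomboy20, of the outer membrane import receptor, at least 12.9-fold. Among 34 measured body isoforms of the respiratory chain and ATP synthase, 1 rose in males, ND-13A by 0.49, and 17 were higher in females, with a median of -0.28. With the median difference between the sexes set to 0, 1 was higher in males and 4 in females. At a common array median 1 was higher in males and 31 in females. COX7C carried both signs, since its probesets differed by 1.998 and -0.468. Of 14 genes listed with the proteasome paralogs 13 rose in males (median 1.70). Prosbeta5R1, a catalytic subunit, was at 3.59 and Rpt3R, of the ATPase ring, at 2.68. Of 12 germline ribosomal protein paralogs 7 rose, with RpL10Aa at 3.10, RpS19b at 2.89, RpL22-like at 2.38 and RpS5b at 2.13. None of the 28 measured cytosolic ribosomal proteins was called by limma, and their differences lay between -0.08 and 0.06. After a shift to a common median 17 of these 28 were called higher in females. Of 22 genes listed with the paralogs of kinases, proton pumps and the cytoskeleton, 13 rose and 3 fell in males. The list also holds Eno, a glycolysis gene, and the 3 that fell were cdi, Vha36-3 and Klp98A. Vha68-3, a subunit of the vacuolar proton pump, was at least 13.4-fold and Klp59D, a kinesin, at least 7.74-fold higher in males.

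The steps of spermatogenesis were represented unequally. Of 17 measured genes of the spermatocyte transcription programme 13 rose and 1 fell in males, with a median of 0.68. The homeodomain protein vis was 3.07 higher, the bromodomain protein tbrd-1 3.06, tbrd-2 2.18, and sa, a testis TAF, 1.93. The gene counted as lower in males was Taf12L by its brightest probeset (-0.38), and its other probeset gave 1.95. Of 13 genes of male meiosis and spermatocyte translation 10 rose (median 1.85), among them fest at 5.70, Mst77F, a sperm chromatin protein, at 5.38, bol, an RNA-binding protein of meiotic entry, at 4.63, orb2 at 2.55 and rux, an inhibitor of cyclin-dependent kinase, at 1.94. One bol probeset of 3 gave -0.29. Of 28 genes of sperm tail, axoneme and cilium 21 rose and 4 fell in males, the rises led by the testis tubulin betaTub85D at 5.80, Rsph1, of the radial spokes, at 3.14, Tektin-A at 2.58 and hmw at 2.38. Dhc93AB, an axonemal dynein heavy chain, was the lowest at -0.48.

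Genes better known from germ cells of both sexes or from the ovary did not follow 1 direction. Of 22 germ cell and stem cell genes 4 (18.2%) were higher in males and 6 (27.3%) in females, both below the shares of all genes, with a median of -0.03, and 5 of the 22 had both means at or under the background level. Bgcn, a partner of bam in germ cell differentiation, was at 4.90, 5.04, 5.58 and 5.53 in males and 3.75, 3.45, 3.30 and 3.35 in females, 3.49-fold higher in males (adjusted p = 2.15e-06). Phf7, a chromatin reader that promotes male germline identity, was at 6.37, 6.25, 6.05 and 6.33 against 5.36, 5.07, 5.29 and 5.55, 1.91-fold higher in males (adjusted p = 4.34e-05). Its difference was 0.02 in P/act-Gal4 larvae. The DEAD-box helicase bel was 1.71-fold higher in males, and mei-P26, a TRIM-NHL protein, 1.39-fold higher in females. The mei-P26 call was lost when the median difference was set to 0 (-0.30) and in the P control alone (-0.25).

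Among 22 piRNA and nuage genes, which silence transposons in gonads, 7 had both means at or under the background level. Of the 22, 7 (31.8%) rose and 1 fell in males. The median was 0.12 and turned to -0.04 at a common array median, and it was -0.06 in P/act-Gal4 larvae. The gene that fell was tapas by its brightest probeset (-0.37), and its other probeset gave 0.74. Mael was at 4.44, 4.51, 4.74 and 4.43 in males and 2.93, 3.28, 3.21 and 3.03 in females, at least 2.39-fold higher, squ was 2.40-fold higher and Hen1, which methylates small RNAs, at least 1.61-fold. Of 25 oogenesis genes 8 had both means at or under the background level. Of the 25, 5 rose and 4 fell in males, a male share of 20%, near that of all genes. Besides exu these included CycB3, a B-type cyclin, at 6.71, 6.64, 6.52 and 6.65 against 4.97, 4.72, 4.71 and 4.67 (3.64-fold higher in males, adjusted p = 4.63e-09), and BicC, a KH-domain RNA-binding protein, 2.17-fold higher. Of 13 genes of meiotic recombination and synapsis 4 rose and 2 fell in males, and 5 had both means at or under the background level. Cona and corolla, both of the synaptonemal complex known from female meiosis, were 3.63-fold and at least 2.39-fold higher in males, and the centromere cohesion protein mei-S332 2.12-fold. The excision nuclease gene mei-9 was 1.61-fold higher in females.

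Some genes of cell division were higher in males. Of 29 measured genes of mitosis and chromosome segregation 14 (48.3%) rose and 0 fell in males (median 0.20), against 20.7% and 33.6% of all genes, and 15 were not called. The anaphase activator fzy was 2.63-fold, the securin pim 2.27-fold, the checkpoint gene mad2 2.17-fold and the kinesin Klp10A 1.88-fold higher in males. At a common array median 12 were higher in males and 5 in females. In P/act-Gal4 larvae the median of the 29 was -0.04, with 13 higher in males and 16 in the female. Of 27 DNA replication genes 5 (18.5%) were higher in males, 5 in females and 17 not called.

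**Figure D3:**
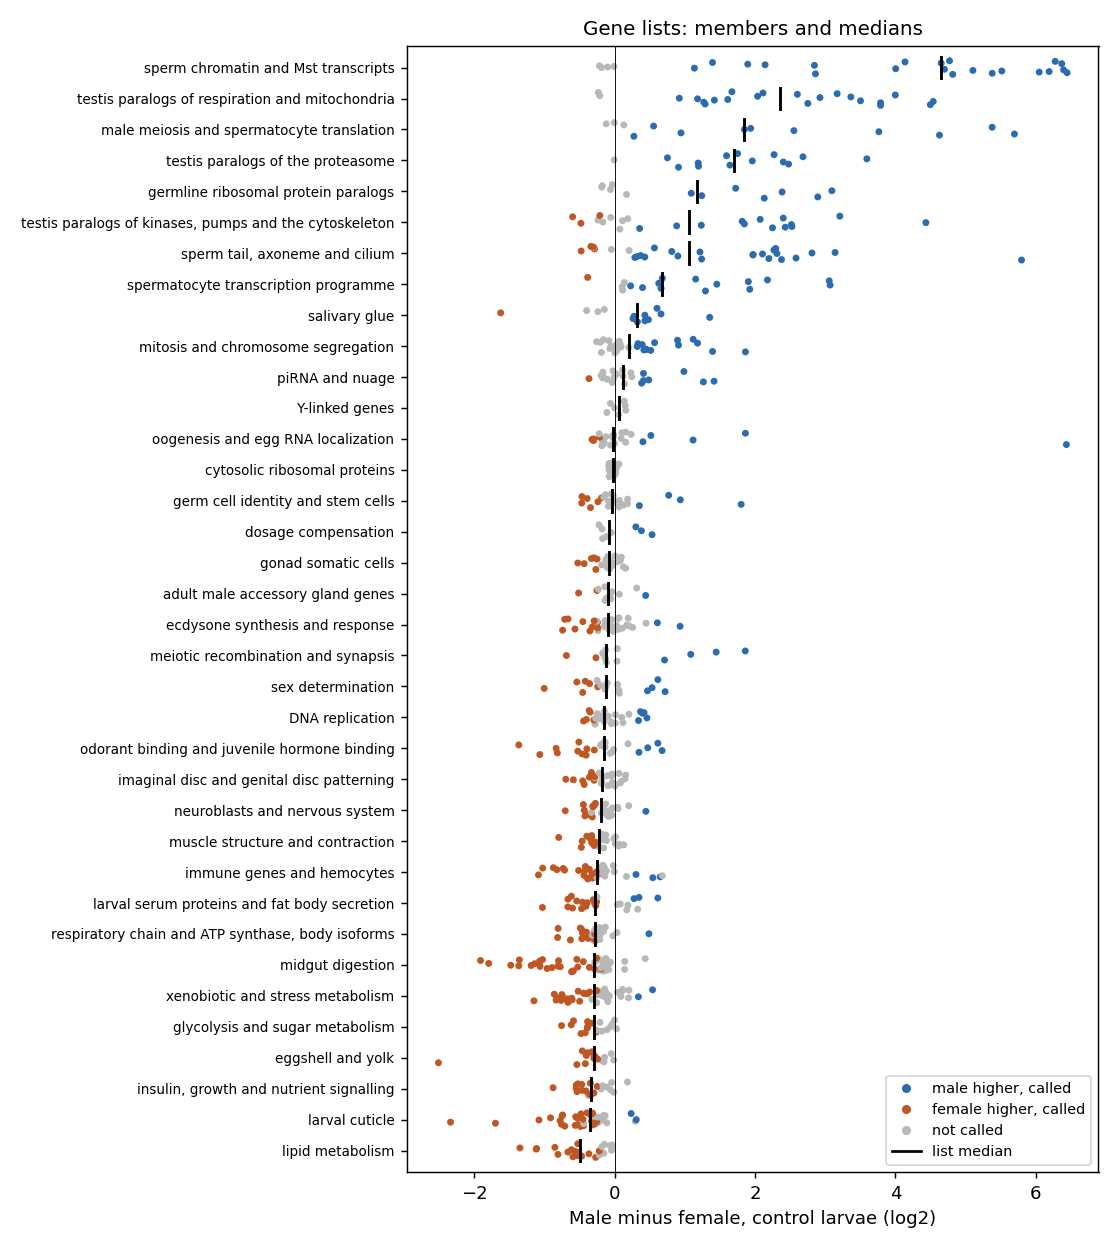
Male minus female log2 difference in control larvae for every measured member of the gene lists with at least 5 measured genes, 1 point per gene, blue where called higher in males, orange where called higher in females and grey where not called; black bars are list medians. The sperm and testis paralog lists extend to the right up to 6.45. The medians of the midgut, cuticle, lipid and muscle lists lie left of 0 and that of the salivary glue list right of 0 (0.32). The lowest point is Yp3 of the eggshell and yolk list at -2.51.

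In the sex determination pathway 4 of 18 measured genes (22.2%) were higher in males and 6 (33.3%) in females, close to the 20.7% and 33.6% of all genes. Doublesex (dsx), the transcription factor at the end of the pathway, is spliced differently in the sexes, and its 2 probesets pointed in opposite directions. One was at 2.24, 2.23, 2.27 and 2.35 in males and 3.57, 4.55, 3.21 and 3.76 in females, a difference of -1.50 ± 0.21 (adjusted p = 0.000134). Its male values lay under the background level, and over that level it was at least 1.415-fold higher in females. The other, brighter one was at 3.44, 3.87, 3.58 and 3.53 in males and 3.10, 3.18, 3.19 and 3.08 in females, a difference of 0.47 ± 0.10 (adjusted p = 0.00262), or at least 1.26-fold. Each probeset separated the sexes on all 8 arrays, and both differences had the same sign in P/act-Gal4 larvae (-2.73 and 0.38). Which exons the probesets cover was not analysed here.

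Sex-lethal (Sxl), the switch gene, had 3 probesets. The brightest did not pass the test (0.07, adjusted p = 0.518) and turned to -0.091 at a common array median. The second gave 0.24 and did not pass either. The third was at 2.14, 2.25, 2.30 and 2.21 in males and 2.67, 2.70, 3.11 and 3.05 in females (-0.65 ± 0.09, adjusted p = 0.000111), within the range of the Y-linked probesets in both sexes. Fruitless (fru) was at 5.85, 5.84, 6.33 and 6.41 in males and 6.86, 6.78, 7.32 and 7.51 in females by its brightest probeset, 2.01-fold higher in females (adjusted p = 8.13e-07). All 7 fru probesets were negative in the joint fit, but those at -0.31 and -0.23 did not pass the limma test (adjusted p = 0.102 and 0.16). They gave 0.11 and 0.09 in the act-Gal4 cross and -0.72 and -0.55 in the P cross. In P/act-Gal4 larvae the brightest fru probeset gave 0.45.

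Transformer (tra), which in females directs the splicing of dsx and fru, was at 5.22, 5.37, 6.09 and 5.82 in males and 5.97, 6.11, 6.08 and 6.17 in females, so that the sexes overlapped. Its difference of -0.46 was called (adjusted p = 0.0103) but not in the P control alone (-0.17). Its partner tra2 was 1.65-fold higher in males, by 1.04 in the act-Gal4 cross and 0.40 in the P cross, but differed by -0.16 in P/act-Gal4 larvae, which did not pass the test (adjusted p = 0.455). Groucho (gro), a corepressor, was 1.28-fold higher in females, a call lost when the median difference was set to 0 (-0.18). Of 8 measured dosage compensation genes 3 rose in males and none fell. The male-specific lethal gene msl-2 was at 3.70, 3.61, 3.85 and 3.91 in males and 2.93, 3.44, 3.33 and 3.24 in females, at least 1.41-fold higher (adjusted p = 0.00193). The acetyltransferase mof was 0.38 and the DNA-binding factor Clamp 0.30 higher in males, and both calls were lost at a common array median (0.22 and 0.14). The genes for the RNAs of the complex were not analysed here.

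On the female side the largest difference was that of Yp3, a yolk protein, which the fat body and follicle cells of adult females are known to make. It was at 3.39, 3.47, 3.48 and 3.51 in males and at 6.55, 6.52, 5.54 and 5.29 in females, a difference of -2.51 ± 0.19 (adjusted p = 8.33e-07). The sexes did not overlap, and the 2 female groups differed from each other. In P/act-Gal4 larvae Yp3 was at 3.34 and 3.13 in the males and 4.90 in the female. Yp1 and Yp2 were near the background level in both sexes, at means of 3.50 and 3.20 in females and 2.97 and 2.78 in males. Both were called (-0.54 and -0.42), Yp1 with overlapping arrays. The other eggshell genes were low as well. Of 16 measured eggshell and yolk genes 11 were higher in females, 6 had both means at or under the background level, and 3 were called when the median difference was set to 0.

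The midgut digestion list, which was also the longest, held more female-biased genes of at least 2-fold than the other lists. Of 47 measured midgut genes 26 were higher in females and 0 in males, 11 of them at least 2-fold (1.42% of all genes). With the median difference between the sexes set to 0, 21 were higher in females and 3 in males. At a common array median 40 were higher in females and 0 in males, where 12801 of all 18769 probesets were called higher in females. Mal-A3, a maltase, was at 4.35, 4.50, 4.39 and 4.34 in males and 6.27, 6.05, 6.30 and 6.13 in females, 3.47-fold higher in females (adjusted p = 8.91e-09), and differed by -1.78 in P/act-Gal4 larvae. LManIII, a lysosomal-type alpha-mannosidase, was at 6.84, 6.83, 4.53 and 4.22 in males and 8.34, 8.19, 6.91 and 6.63 in females. It was 3.76-fold higher in females (adjusted p = 3.99e-06), with overlap between the crosses but not within a cross. Its family member LManV was 2.56-fold higher, the serine protease Ser6 2.79-fold and the trypsins lambdaTry and kappaTry 2.58-fold and 2.28-fold. In P/act-Gal4 larvae LManIII, LManV and lambdaTry were higher in males, by 0.28, 0.15 and 0.29. Of the 47 midgut genes 33 were higher in the P/act-Gal4 female, beside 63.5% of all genes. The sex difference of 15 of the 47 differed between the control crosses by limma.

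Of the 23 measured Cpr cuticle protein genes in the larval cuticle list, 14 were higher in females, 1 in males and 8 were not called. Cpr47Eg was at 6.51, 6.55, 4.09 and 3.89 in males and 8.20, 8.24, 6.97 and 6.98 in females, 5.06-fold higher in females (adjusted p = 3.21e-06). Cpr47Ec, named for the same locus, was 3.25-fold and Cpr62Bc 2.11-fold higher. Cpr11B, which is not in that list, was 2.59-fold higher in females. Of 39 measured larval cuticle genes 10 had both means at or under the background level. Of the 39, 27 were higher in females and 2 in males (median -0.35), and 36 were higher in the P/act-Gal4 female (63.5% of all genes). With the median difference between the sexes set to 0, 13 were higher in females and 3 in males. At a common array median 36 were higher in females and 0 in males.

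Genes of fat storage and transport followed. None of 24 lipid metabolism genes was higher in males and 16 were higher in females (median -0.50). Of the 24, 12 were higher in females with the median difference between the sexes set to 0, and 20 at a common array median. The acyl-CoA binding proteins Acbp5, Acbp3, Acbp4 and Acbp6 were 2.55, 2.17, 2.16 and 1.81-fold higher in females. The droplet protein Lsd-1 was 1.75-fold and mdy, a diacylglycerol acyltransferase, 1.59-fold higher. Among 24 fat body secretion genes 15 were higher in females and 3 in males. The counts were 7 each with the median difference between the sexes set to 0, and 16 and 1 at a common array median. The female share was then near that of all probesets at that scaling. Apoltp, a lipid transfer particle protein, was at 6.31, 6.24, 6.08 and 6.20 in males and 7.28, 7.31, 7.27 and 7.07 in females, 2.04-fold higher in females (adjusted p = 7.17e-07), yet 0.98 higher in males in P/act-Gal4 larvae. The lipophorin apolpp was 1.52-fold, Mtp 1.59-fold and the chitinase-like growth factor Idgf6 1.59-fold higher in females. Obp99b was 1.53-fold higher in males, with differences of 0.11 in the act-Gal4 cross and 1.12 in the P cross.

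Of 22 genes of insulin, growth and nutrient signalling 14 were higher in females and 0 in males. These counts were 5 and 1 with the median difference between the sexes set to 0, and 18 and 0 at a common array median. AkhR, the receptor of adipokinetic hormone, was at 5.40, 5.48, 5.12 and 4.87 in males and 6.29, 6.28, 5.79 and 6.02 in females, 1.84-fold higher (adjusted p = 7.89e-06). Its ligand Akh was 1.46-fold, the insulin receptor substrate chico 1.45-fold and the amino acid transporter slif 1.44-fold higher in females. Other named female-biased genes were sphe, a serine protease homolog, at 3.17-fold, the neuropeptide-like precursor Nplp2 at 3.03-fold, the ornithine decarboxylase Odc2 at 2.71-fold, the odorant binding proteins Obp83g and Obp18a at 2.58-fold and 2.10-fold, vanin-like at 2.56-fold, the glucuronosyltransferase Ugt37D1 at 2.55-fold and the cytochrome P450 Cyp6w1 at 2.22-fold. Nplp2 was 0.73 higher in males in P/act-Gal4 larvae.

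Of 35 measured blood cell and immune genes 18 (51.4%) were higher in females and 3 (8.57%) in males. These counts were 7 and 4 with the median difference between the sexes set to 0, and 28 and 2 at a common array median. The prophenoloxidase PPO1, of crystal cells, was at 6.67, 6.78, 3.83 and 3.56 in males and 7.67, 7.56, 4.77 and 4.94 in females, so that the crosses differed by more than the sexes. Within each cross females were higher (-0.89 and -1.16), 2.04-fold in the fit, and PPO2 was 1.83-fold higher. The antimicrobial peptide gene Def was 2.12-fold higher in females but 1.39 higher in P/act-Gal4 males. Drsl2, of the drosomycin family, was 1.57-fold higher in males, a call lost without any 1 of the 4 P control arrays (0.50 to 0.57).

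Discs, nerve and muscle showed small differences. Among 27 imaginal disc genes 9 (33.3%) were higher in females and 0 in males (median -0.18, beside -0.14 for all genes), a female share close to the 33.6% of all genes. The transcription factors eyg, ct and vg were 1.62-fold, 1.50-fold and 1.37-fold higher in females, the last not called with the median difference set to 0. Of 22 genes of gonadal somatic cells 6 (27.3%) were higher in females, a share below that of all genes, and 0 in males, with a median of -0.08. Of 25 nervous system genes 11 (44%) were higher in females, led by the GABA receptor Rdl at 1.63-fold, and 1, Ddc, was higher in males. Of 23 muscle genes 11 (47.8%) were higher in females, led by Obsc at 1.74-fold. The muscle median was -0.05 in the act-Gal4 cross, -0.45 in the P cross and 0.03 in P/act-Gal4 larvae. With the median difference between the sexes set to 0, 3 nervous system genes were higher in females and 2 in males. For muscle these counts were 2 and 1.

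The salivary glue genes were the larval somatic list with most members on the male side. Of 13 genes 9 rose and 1 fell in males, in which 20.7% of all genes rose. These counts were 9 and 1 with the median difference between the sexes set to 0, and 6 and 3 at a common array median. The list median was 0.32 as deposited and 0.17 at a common array median. Sgs5bis was at 11.04, 11.08, 11.41 and 11.37 in males and 9.47, 9.48, 10.23 and 10.30 in females, 2.56-fold higher in males (adjusted p = 4.92e-07). Eig71Ee was 1.58-fold and Sgs3 1.35-fold higher. The Sgs3 values of the sexes overlapped between the crosses but not within a cross, and ng1 was 3.08-fold higher in females. In P/act-Gal4 larvae the order differed, with 10 of the 13 higher in the female and Sgs5bis at -0.77. Glue genes are switched on and off by ecdysone pulses in late larvae, and the exact age of the larvae is not given in the labels. Of 36 ecdysone genes 12 had both means at or under the background level. Of the 36, 2 (5.56%) were higher in males and 10 (27.8%) in females, both below the shares of all genes. Ftz-f1 was 1.67-fold and Cyp18a1, which inactivates ecdysone, 1.64-fold higher in females, and ImpE2 was 1.53-fold higher in males. ImpE2 was -3.89 in P/act-Gal4 larvae. The heat shock gene Hsp27, known to respond to ecdysone, was 1.45-fold higher in control males.

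Male-biased genes were less frequent on the X chromosome in these counts. Of 1873 X-linked genes 145 (7.74%) were at least 2-fold higher in males, against 1092 of 9950 (10.97%) on the major autosome arms, the highest being 2L with 13.2%. On the X 44 genes (2.35%) were at least 2-fold higher in females, against 126 (1.27%) on these arms. The median X-linked gene differed by -0.22 and the median gene of the arms by -0.12. With the median difference between the sexes set to 0, 19.9% of X-linked genes were higher in females, against 10.6 to 12.6% on the arms. The small chromosome 4 had 65 genes, 0 at least 2-fold different, 2 called higher in males and 21 in females. These shares carry no test.

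**Figure D4:**
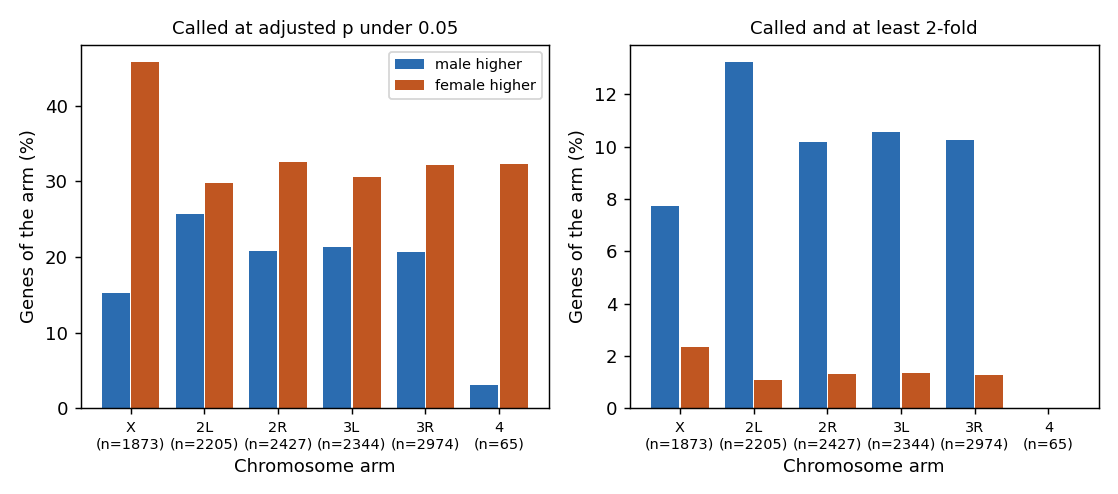
Percent of the measured genes of each chromosome arm called higher in males (blue) or females (orange), for all calls (left) and calls of at least 2-fold (right), with the number of genes under each arm. The X chromosome has the lowest male share of the major arms, 7.74% at 2-fold, and the highest female share, 2.35%.

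The 2 control crosses did not give the same sex difference for every gene. A test of the difference between them (limma, interaction) called 1252 probesets (6.67%), or 1023 genes (8.54%), with 417 of these genes opposite in sign. Among genes at least 2-fold higher in males the share was 110 of 1245 (8.84%), and among those at least 2-fold higher in females 93 of 170 (54.7%). The count of 1252 probesets fell to between 461 and 1174 when 1 array was left out, with 461 and 497 without either act-Gal4 male array. Fitted in the act-Gal4 cross alone, 1347 probesets were called at least 2-fold higher in males and 159 in females, and in the P cross alone 1438 and 450.

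The respiratory chain was among the groups that differed. Its 34 body isoforms had a median difference of 0.02 in the act-Gal4 cross and -0.60 in the P cross, and 22 of them were called by the interaction test. ATPsynbeta was at 8.97 and 8.97 in act-Gal4 males, 9.09 and 9.12 in act-Gal4 females, 8.30 and 8.35 in P males and 9.83 and 9.80 in P females. Females were thus higher by 0.13 in one cross and 1.49 in the other (adjusted p of the difference 0.000478). COX5B and Cyt-c1, 1.55-fold and 1.75-fold higher in females in the joint fit, differed by -0.27 and -0.59 in the act-Gal4 cross and by -0.99 and -1.02 in the P cross. Of 18 glycolysis genes 9 and of 23 muscle genes 8 were called by the interaction test, and Gpdh1 was 1.69-fold higher in females in the joint fit. Among the named genes called in the joint fit, ATPsynbeta, COX7C, Acbp3, Gpdh1, Akh, Hsp27, Obp99b, Yp1 and msl-2 were not called in the act-Gal4 cross alone, and Yp2, gro and Taf12L were among those not called in the P cross alone. The P males also had the largest eIF4a gap between 3′ and 5′ probesets (4.97) of all groups.

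Ebony (e), which acts in cuticle tanning and in glia, had the smallest adjusted p of the interaction among named genes. It was at 8.39 and 8.44 in act-Gal4 males, 8.71 and 8.59 in act-Gal4 females, 8.57 and 8.48 in P males, and 3.90 and 3.78 in P females. It was low only in the P control females, and in P/act-Gal4 larvae it was at 10.48 and 10.43 in males and 10.39 in the female. Its joint difference of 2.23 (adjusted p = 0.0273) thus rests on 1 group, is -0.23 in the act-Gal4 cross and is not called without any 1 of the 4 P control arrays (1.71 to 1.76). CG7924 and CG7906, chosen after their values were seen, had the same pattern. CG7924 was at 4.01 and 4.35 in P females and between 8.90 and 9.83 on the other control arrays. CG7906 was at 3.95 and 3.84 in P females and between 8.07 and 9.36 on the others.

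**Figure D5:**
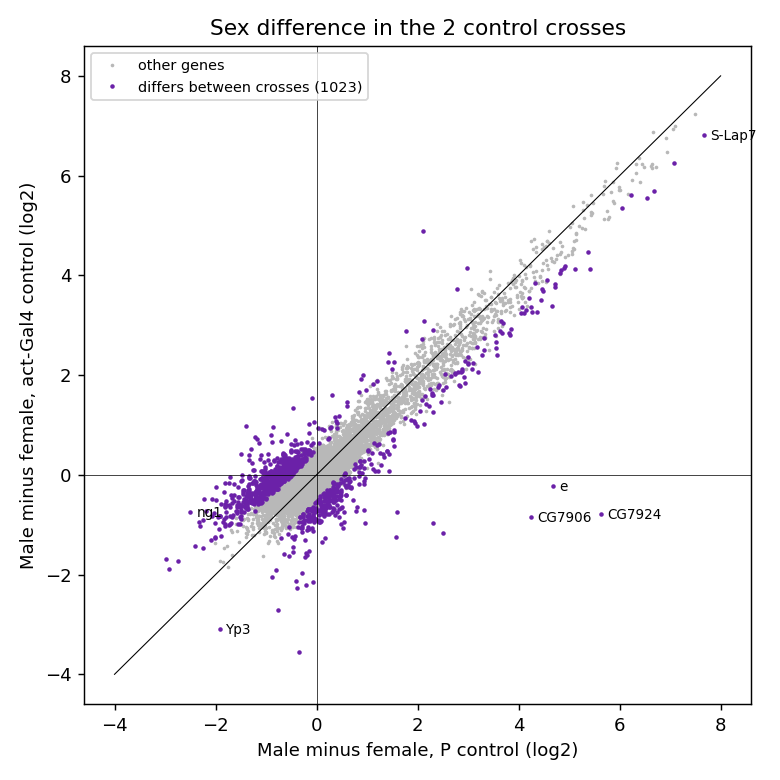
Male minus female log2 difference in the act-Gal4 control (vertical axis) against the P control (horizontal axis), 1 point per gene, with the line of equal differences; purple points are the 1023 genes whose sex difference differed between the crosses by limma. The male-biased genes follow the line, the female-biased genes scatter more widely around it, and e, CG7924 and CG7906 stand far below it.

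A sex difference of at least 2-fold in the act-Gal4 cross, the P cross and P/act-Gal4 larvae, with separate arrays in the controls, was found for 1005 genes higher in males and 10 higher in females. This set was chosen after the values were seen. The 10 were Yp3, Cpr47Eg, Cpr47Ec, Mal-A3, Abca3, CG3819, CG6839, CG11350, CG6067 and CG14191, of which Yp3, Abca3, CG6067 and CG14191 lie on the X chromosome. CG3819 was at 7.75, 7.71, 8.22 and 8.03 in control males and 9.44, 9.45, 9.97 and 10.11 in control females, and at 8.58 and 8.50 in P/act-Gal4 males against 10.16 in the female. Its difference was -1.82 ± 0.08, and its neighbour on 3L, CG6839, differed by -1.64. Abca3, an ABC transporter, was at 4.55, 4.40, 4.04 and 4.07 in control males and 5.36, 5.70, 5.43 and 5.44 in control females (-1.22 ± 0.10, adjusted p = 1.65e-06). Of the 1005 male-biased genes 11.6% were X-linked, where 15.6% of all genes are.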

How the data were processed

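Intensities, 1 per probeset and array, were deposited on the linear scale and had been summarised and normalised by the authors with RMA, per the submitters' processing notes; its version and whether all arrays were processed together are not given in the sources used here. Log2 of every value was taken, without a pseudocount, and low values were not filtered. Of 18952 probesets, 183 Affymetrix controls were left out. The platform annotation gave 13647 of the rest 1 gene, 402 several and 4720 none, and 13544 matched the RefSeq gene table, used for names and chromosomes only. A gene's value is that of the probeset brightest on average, unless said otherwise.

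The 8 control arrays were fitted in limma 3.58.1 (R 4.3.3, lmFit and eBayes) with sex and control cross as terms. P-values were adjusted by Benjamini-Hochberg over all 18769 probesets and called under 0.05. The difference between crosses was a contrast of 4 group means, and the P/act-Gal4 contrast came from 6 group means fitted to all 11 arrays, which gives the single female array the spread of the other groups. Errors are standard errors of the fit. The fit was tested on simulated data. No detection calls were used, the number of arrays limits the precision, and depth does not apply.

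Genes were named by a rule: the 15 largest differences in each direction among called genes with non-overlapping sexes and a name other than a CG or CR number, the same among genes above the median probeset in both sexes, up to 6 passing members per direction of 38 gene lists (2 as values where none passed), and the 10 smallest adjusted p of the difference between crosses. The members and lists were chosen with earlier results of these data known. Lists are described by counts and medians, with the shares and median of all genes given once for them and repeated where a list lies near them. Alternatives covered the covariate, each cross alone, moderation, 2 further scalings, bright probesets, 1 probeset per gene, a minimum size and leaving out each array; setting the median difference between the sexes to 0 was added after seeing the data. Figures were drawn with matplotlib 3.10.9.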

Additional observations from a re-analysis of the deposited data

Results flagged for a closer look

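For 45 of the 148 genes with a value of the sex comparison in the text, the sex difference itself differed between the control crosses (limma, adjusted p under 0.05). Over all genes it was 1023 of 11982 (8.54%). Some of the 148 were named for a small p of this same test or after their values were seen, so their share is raised by the choice. The values here are the male minus female log2 difference in the act-Gal4 cross minus that in the P cross. Chance and the number of genes tested were taken into account only through the adjustment over all probesets.

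The size of the male bias was larger in the P cross for S-Lap7 (-0.87), Mst84Db (-0.98), sm (-1.10), kat-60L1 (-0.85) and bgcn (-0.85). It was also larger there for fest (-0.68), rux (-0.68), Rpt3R (-0.64) and Vha68-3 (-0.79). The same held for Obp99b (-1.01), Drsl2 (-1.14), Hsp27 (-0.79) and ImpE2 (-0.67), while tra2 (0.63) had the larger male bias in the act-Gal4 cross.

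The female bias was larger in the P cross for cuticle genes, namely Cpr47Eg (1.30), Cpr47Ec (0.77), Cpr11B (1.10) and Cpr62Bc (1.12). Digestive genes with a larger female bias there were Ser6 (1.04), lambdaTry (1.08), kappaTry (1.19), LManV (0.73) and LManIII (0.97). Genes of fat and energy metabolism in the same direction were Acbp5 (1.74), Acbp3 (1.74), Acbp4 (0.93), Acbp6 (0.74), Lsd-1 (0.72), ATPsynbeta (1.36), COX5B (0.72), COX7C (0.82) and Gpdh1 (0.88). The others were sphe (1.29), ng1 (1.75), Obp83g (1.09), Obsc (0.88), PPO2 (0.56), Cyp6w1 (0.85) and CG6839 (0.74). The female bias was larger in the act-Gal4 cross for Yp3 (-1.18), vanin-like (-1.11) and Def (-1.08).

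The largest values belonged to CG7924 (-6.41), CG7906 (-5.09) and e (-4.91), which were low in the P control females alone.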

How the results depend on the processing

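Each choice was changed singly. The count of 9538 probesets became 15136 at a common array median, 5886 with the median difference set to 0, 5535 among bright probesets and 1571 with a log2 difference of at least 1 required, and ranged from 8023 to 8780 when 1 array was left out. Of these, the male-higher count of 2809 became 1369 with that minimum size. The female-higher count of 6729 became 12801, 2130, 3470 and 202 under the same 4 settings, in that order, 3994 with 1 probeset per gene and 4447 in the P cross alone. The count of 1252 for the difference between crosses became 2231 with trend and robust moderation and 258 with the minimum size, and ranged from 461 to 1174 when 1 array was left out. The causes were not tested.

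Among the named genes' differences, 2669 settings kept direction and side of the threshold, 109 lost the call, 16 gained it and 7 changed sign. In the act-Gal4 cross alone e was -0.23, Sxl -0.081, CG7924 -0.78, CG7906 -0.84 and Jon65Aiv 0.16. Sxl was -0.091 at a common median and Jon65Aiv 0.090 with the median difference set to 0. Of list medians, 524 moved by less than the spread and 159 by more. Small female biases depend on the scaling; signal near the background level limits low genes. No paired analysis was possible because the labels give no replicate numbers shared between groups.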
